A study of Rattus norvegicus with 13 samples.

Results

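Motile cilia are the beating hairs of airway, ependymal and oviduct cells and, in a related form, the sperm tail. Their axoneme carries dynein arms, radial spokes and a central pair of microtubules, and the transcription factors Foxj1, Rfx2 and Rfx3 switch on the genes that build it. Thyroid follicular cells carry primary cilia, which are built by the same intraflagellar transport motors but lack the central pair and the dynein arms. The motile cilium genes described here were 29 named genes and every gene called Dnah or Dnai followed by digits, 39 in all, of which 37 had a probe among the 36174 gene names of the array. The set was put together because probes of Spag6 and Kif3a ranked high in the comparison of KI-treated with control thyroids, so the differences of those genes between the groups are given as a description without a test. The other members were chosen for their function.

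The thyroids came from male Wistar rats, each measured on a single-colour Agilent array, with 6 arrays in the KI-treated group and 7 in the control group. The mothers of the KI-treated animals had been given KI at 1 mg/kg by gavage each day for 8 days from gestational day 9, and the mothers of the controls saline. The progeny, which were not treated themselves, were 51 days old, 30 days after weaning. The litters are not named in the sources used here, so littermates cannot be told apart and p-values measure only the spread between these 13 arrays. The level of a probe is its processed signal on the log2 scale, set against the 75th percentile of the same array, so that a level of 0 equals that percentile. Levels of different probes do not rank genes by amount, because probes bind with different strength. Thyroglobulin (Tg) had a level of 9.80 to 10.58 on the 13 arrays, and 12 of 13 thyroid follicular markers were above background on every array, Slc26a4 being above background on none. In whole tissue, fewer cells of a type and less RNA per cell cannot be told apart.

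Which members were visible at all differed by role, and the few probes on which the results turn are shown first. Both probes for Spag6, a central pair protein of the axoneme, are printed because they differ in what they show, the brighter by its opening 30 bases only, and the Kif3a probe because Kif3a was ranked by it. The end of the Dnah10 probe is shown because it resembles the end of the ID repeats that are scattered through rodent transcripts. A run of 11 bases in it, given in capitals, occurs in 2 of the 45598 probes on the array. That count does not say how many transcripts carry the run. The part of such repeats in the Dnah10 level was not tested.
Spag6 probe A_64_P094910, bases 1 to 30 of 60: cacaccagactcagactttattcacatttt
Spag6 probe A_43_P18519: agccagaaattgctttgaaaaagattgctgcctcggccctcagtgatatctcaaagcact
Kif3a probe A_42_P647500: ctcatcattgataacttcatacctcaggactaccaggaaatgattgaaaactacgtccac
Dnah10 probe A_44_P1162745, bases 35 to 60: gggttcggtacccAGCTCCGAAAAaa

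In the rn4 coordinates of the array files, the Spag6 probes lie on the plus strand at chr11:86321273-86321332 (A_64_P094910) and chr11:86252607-86252666 (A_43_P18519), 68.7 kb apart. They share no run longer than 6 bases. Both carry a transcript that RefSeq (GRCr8) now assigns to Spag6l, a gene on chromosome 11 from 97677840 to 97773580. Probe A_43_P18519 is also annotated with the transcript of the gene now called Spag6, on chromosome 17 from 86258418 to 86309922, so its signal may come from either gene. The name Spag6 is kept here as the files give it. The Kif3a probe, for the motor subunit of kinesin-II that drives intraflagellar transport, spans an intron between positions 39056626 and 39059587 of chromosome 10.

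Of the 37 members, 15 were well above background on all 13 arrays, 23 were above background on at least 6 arrays and were tested, 5 were seen on 1 to 5 arrays, and 9 were above background on none. Counted by probe, 26 of the 55 member probes were tested (47.3%, against 56.4% of all probes on the array) and 38.2% were never above background, against 28.4% of all probes. The 9 genes without any signal above background were Ak7, Hydin and Spag16 of the central pair, Armc4, Dnah5, Dnah7, Dnai1 and Dnai2 of the dynein arms, and Lrrc6, which helps to assemble those arms. Spag17 and Rsph4a had no probe. The transcription factors (3 of 3), the radial spoke proteins (3 of 3) and the kinesin-II motors (2 of 2) were above background on every array, whereas of 6 central pair genes with a probe only Spag6 was tested. Kif9 and Spef2, the remaining central pair genes, were above background on 5 arrays each.

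**Figure D1:**
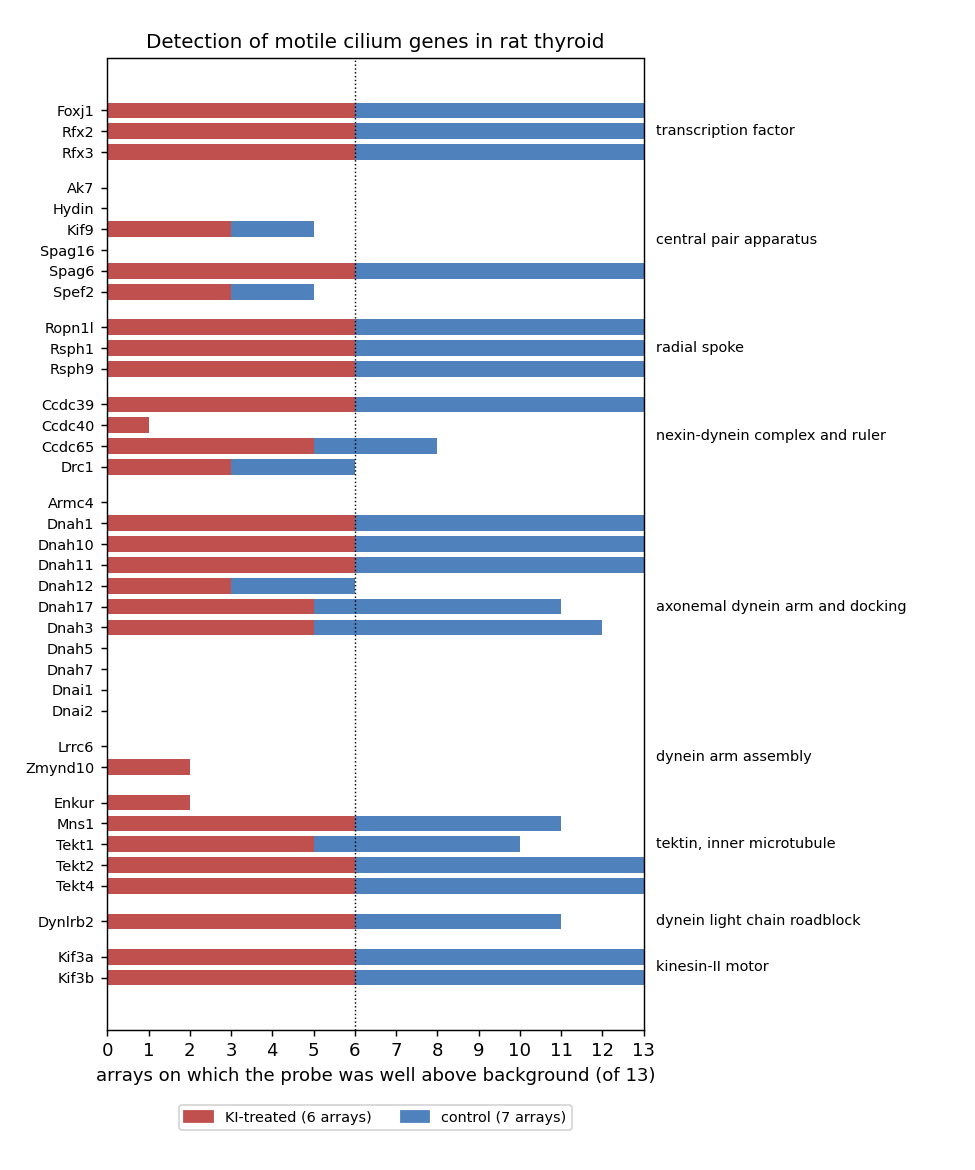
Number of arrays on which the brightest probe of each motile cilium gene was well above background, with KI-treated arrays in red and control arrays in blue, genes grouped by role, and the dotted line at the 6 arrays needed for a test. Transcription factors, radial spoke proteins and kinesin-II motors fill all 13 arrays, and 9 genes have no bar.

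Of the genes that were seen on too few arrays for a test, Ccdc40, Zmynd10 and Enkur were above background only on KI-treated arrays. Ccdc40, part of the molecular ruler that spaces the axonemal repeats, passed on 1 array, and Zmynd10, an assembly factor of dynein arms, and Enkur, an inner microtubule protein, on 2 arrays each. These counts were not tested, and the levels of both groups overlapped for each gene. The share of all probes flagged in 1 group only is not given, so nothing is read from these counts. Arrays differed in flagged spots, from 34840 (control animal 6) to 41050 (KI-treated animal 3). The highest Zmynd10 level, -3.67 in control animal 5, was not flagged as above background.

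Several members were visible with 1 probe and not with another. Foxj1, the forkhead factor that acts as the master switch of motile cilia, had a mean level of -0.89 with probe A_44_P1159706, above background on 13 arrays, and of -4.69 with probe A_44_P457599, above background on 3. Dnah1, an inner arm dynein heavy chain, was at -1.22 and above background on 13 arrays with its brightest probe, and on none with its other probes, at -5.59 and -6.43. Dnah10, also of the inner arm, was at 6.94 with the probe printed above and at -5.03, above background on 1 array, with a probe 0.845 kb away on the same strand. The level of 6.94 was above the 99th percentile of all probes, 6.28. A gene that counts as seen by its brightest probe was thus not seen by every probe, and which transcript each probe binds was not tested.

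Spag6 was lower in the KI-treated group with its brightest probe and not with the other. On the brightest probe (A_64_P094910), the KI-treated animals had levels of -2.25 to -1.18, with a median of -1.49. The controls had levels of -1.19 to -0.09, with a median of -0.33. Control animal 1, at -1.19, sat among the KI-treated animals and 0.01 below the highest of them, while the other controls were between -0.38 and -0.09. The KI-treated mean minus the control mean was -1.20 (SE 0.19), a level 2.30-fold higher in the controls. The difference was below 0 within each of the 5 slides that held both groups, between -1.59 and -0.32, the smallest being on the slide of control animal 1. Spag6 was ranked on these same arrays, so the shared sign is no independent support.

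On probe A_43_P18519 the KI-treated animals ranged from -2.94 to -1.11 with a median of -2.73, and the controls from -3.16 to -1.80 with a median of -2.48. The groups overlapped almost fully, and KI-treated animal 2 was far above the rest of its group. Here the difference was -0.04 (SE 0.28), and within slides it ran from -0.65 to 1.17. Averaging the probes gave a log2 difference of -0.62 for Spag6. After the mean of each group was taken away, the probes correlated over the 13 arrays with Pearson r = 0.22 (permutation p = 0.443, adjusted 0.812) and Spearman rho = 0.34 (permutation p = 0.274, adjusted 0.81). Without the 2 arrays on which the brightest probe was farthest from its median, r was 0.14.

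The nearest probe beyond the brightest Spag6 probe belonged to LOC102546862, an uncharacterized gene on the opposite strand, 25.2 kb away at chr11:86346506-86346565. It is no member of the set and was picked after its values had been seen. The KI-treated animals had levels of -5.64 to -3.58 (median -4.67) and the controls of -4.58 to -2.38 (median -3.13), and the probe was above background on only 3 KI-treated and 5 control arrays. The groups overlapped, and control animal 1 was again the lowest control. The probe differed by -1.24 on the log2 scale (SE 0.35, limma adjusted p = 0.353 over all probes tested). It differed by less under other processing, by -0.56 (normexp, 75th percentile), -0.40 (normexp, quantile normalization) and -0.54 (deposited values), where Spag6 differed by -0.95, -0.91 and -1.01. A further probe for the same gene, 27.6 kb away, was above background on 5 arrays, and its levels ran from -5.79 to -3.71 in the KI-treated animals and from -5.25 to -3.59 in the controls.

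With group means removed, the Spag6 probe and the LOC102546862 probe correlated with Pearson r = 0.82 (permutation p = 0.00148) and Spearman rho = 0.66 (permutation p = 0.0205) over 13 arrays. Among 25649 probes ranked by that r, LOC102546862 was at place 12. Control animal 1 and KI-treated animal 1 were the lowest of their groups on both probes. On neither of these arrays was the LOC102546862 probe above background. Without both, the 2 arrays farthest from the median of Spag6, r was 0.53. With each array left out in turn it stayed between 0.73 and 0.91, but at least 1 of these 2 arrays was then always kept. The p-values are no independent support, since the pair was picked by its values.

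**Figure D2:**
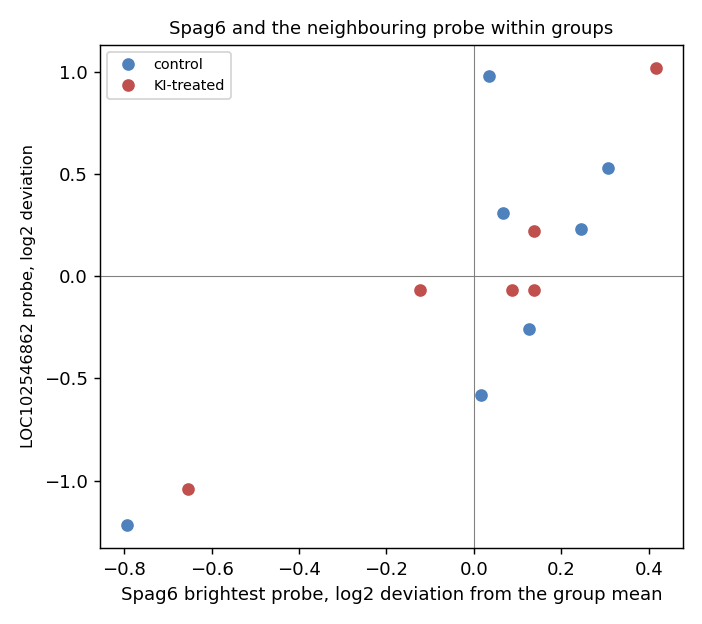
Deviation of each array from its group mean (log2) for the brightest Spag6 probe on the horizontal axis and the LOC102546862 probe on the vertical axis, with controls in blue and KI-treated animals in red. Control animal 1 (-0.79 and -1.22) and KI-treated animal 1 (-0.65 and -1.04) lie far to the lower left of the other 11 points.

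Kif3a was higher in the KI-treated group. The KI-treated animals had levels of -0.54 to -0.38 with a median of -0.47, and the controls of -0.88 to -0.66 with a median of -0.78. Every KI-treated animal was above every control. Of the 25650 probes with complete values, 0.257% separated the groups in that direction, from which nothing is read here, since Kif3a was ranked on these values. The log2 difference was 0.30 (SE 0.09), a 1.23-fold higher level, and it was above 0 within each of the 5 slides that held both groups, between 0.18 and 0.40. For the same reason, the sign shared by the slides is no independent support. Kif3b, the partner of Kif3a in the kinesin-II motor, went the other way without passing the test. The KI-treated animals had Kif3b levels of 2.81 to 3.15 (median 2.99) and the controls of 2.73 to 3.72 (median 3.15). The groups overlapped, 5 of 6 KI-treated animals were below the control median, and the log2 difference was -0.22 (SE 0.17, limma adjusted p = 0.518, exact permutation p = 0.242).

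**Figure D3:**
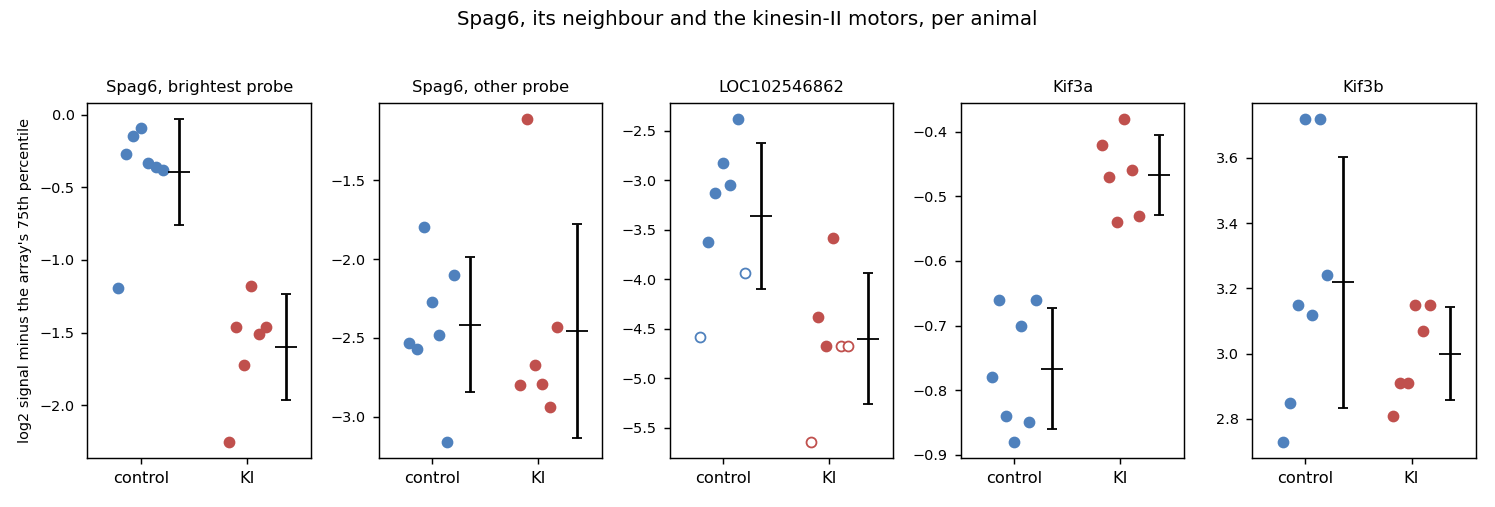
Level on each array (log2 signal minus the 75th percentile of the array) for both Spag6 probes, LOC102546862, Kif3a and Kif3b, with controls in blue and KI-treated animals in red, open circles for spots not well above background, and the bars giving mean and SD. Each panel has its own vertical axis. Spag6 is lower in the KI-treated animals on the brightest probe only, control animal 1 lies with them at -1.19, and Kif3a alone separates the groups without overlap.

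Of the 21 tested members apart from those genes, none had a limma adjusted p under 0.05, with adjusted p between 0.353 and 0.961, and over the whole array 0 of 25717 probes did (0%). At an unadjusted p under 0.05, 3 members were lower in the KI-treated group, which is 14.3% against 7.01% of all tested probes, and 1 was higher, which is 4.76% against 5.71%. The array as a whole had 12.7% of probes (3271) at that threshold, so these shares rest on few genes over a high background. The median log2 difference of the 21 members was -0.16, beside -0.08 over all tested probes, and 14 of them were below 0 and 7 above, from -0.57 (Tekt2) to 0.64 (Mns1).

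**Figure D4:**
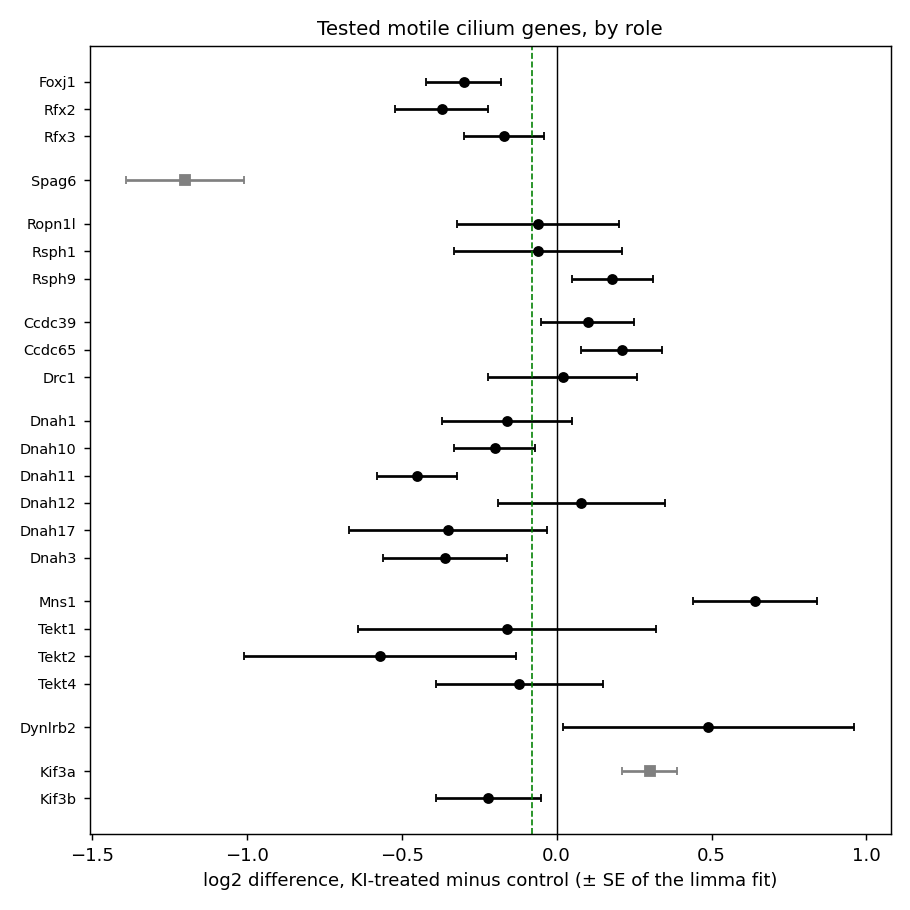
Log2 difference of KI-treated minus control for the 23 tested motile cilium genes on their brightest probe, with bars for the SE of the limma fit, the solid line at 0 and the dashed line at -0.08, the median of all tested probes. Spag6 and Kif3a, drawn as grey squares, were the genes whose ranking led to the set, and the other genes lie between -0.57 and 0.64.

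Of the 3 transcription factors, Foxj1 and Rfx2 were lower at an unadjusted p under 0.05 and Rfx3 was not. Foxj1 levels were -1.16 to -0.86 in the KI-treated animals (median -1.07) and -1.09 to -0.46 in the controls (median -0.80). All 6 KI-treated animals were below the control median, though the ranges overlapped. The log2 difference was -0.30 (SE 0.12, limma adjusted p = 0.369, exact permutation p = 0.0186), and within slides it ran from -0.61 to -0.12. The unadjusted limma p of Foxj1 was 0.0757 with the 75th percentile taken over all gene spots. It was 0.0665 with replicate number as a block and 0.0574 with array weights.

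Rfx2, of the RFX family that binds the X-box in promoters of cilium genes, had levels of -1.66 to -1.27 in the KI-treated animals (median -1.51) and of -1.55 to -0.60 in the controls (median -1.18). Its groups overlapped as well, with all 6 KI-treated animals below the control median. Rfx2 differed by -0.37 on the log2 scale (SE 0.15, limma adjusted p = 0.369, exact permutation p = 0.0192), and within slides it ran from -0.60 to 0.03. With slide or scan session as a block its unadjusted limma p was 0.0525 and 0.0538, so that 2 members in place of 3 were lower at that threshold. The unadjusted limma p of Rfx2 was 0.0846 with the percentile over gene spots and 0.0614 with replicate number as a block. Rfx3, the related factor, was not past that threshold on any of its 3 tested probes, whose log2 differences were -0.17 (brightest), 0.52 and -0.06 and so did not share a sign.

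Among the dynein arm genes, Dnah11, an outer arm heavy chain, had the lowest unadjusted p. Its levels were -0.78 to -0.25 in the KI-treated animals (median -0.37) and -0.22 to 0.43 in the controls (median -0.08). Every KI-treated animal was below every control, a separation that 0.324% of the probes with complete values showed in that direction, and the gap was 0.03. The log2 difference was -0.45 (SE 0.13, limma adjusted p = 0.353), the exact permutation p of 0.00117 is the smallest that 6 against 7 arrays allow, and the difference was below 0 within all 5 slides, from -0.84 to -0.16.

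The remaining dynein heavy chains had differences within 2 SE of 0. Dnah3 differed by -0.36 (SE 0.20), Dnah17 by -0.35 (SE 0.32) and Dnah1 by -0.16 (SE 0.21), and their groups overlapped. Dnah10 had levels of 6.63 to 6.91 in the KI-treated animals and of 6.53 to 7.34 in the controls, a difference of -0.20 (SE 0.13, limma adjusted p = 0.477, exact permutation p = 0.126). Dnah12 differed by 0.08 (SE 0.27). Their adjusted p-values lay between 0.43 (Dnah3) and 0.882 (Dnah12).

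The structural proteins showed no common direction. In the tektin and inner microtubule group, Mns1 was at -3.67 to -2.88 in the KI-treated animals (median -3.29) and at -4.73 to -3.43 in the controls (median -3.86). All 6 KI-treated animals were above the control median. The log2 difference was 0.64 (SE 0.20, limma adjusted p = 0.353, exact permutation p = 0.00991), between 0.19 and 0.79 within slides and 0.09 after normexp background correction scaled to the 75th percentile.

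**Figure D5:**
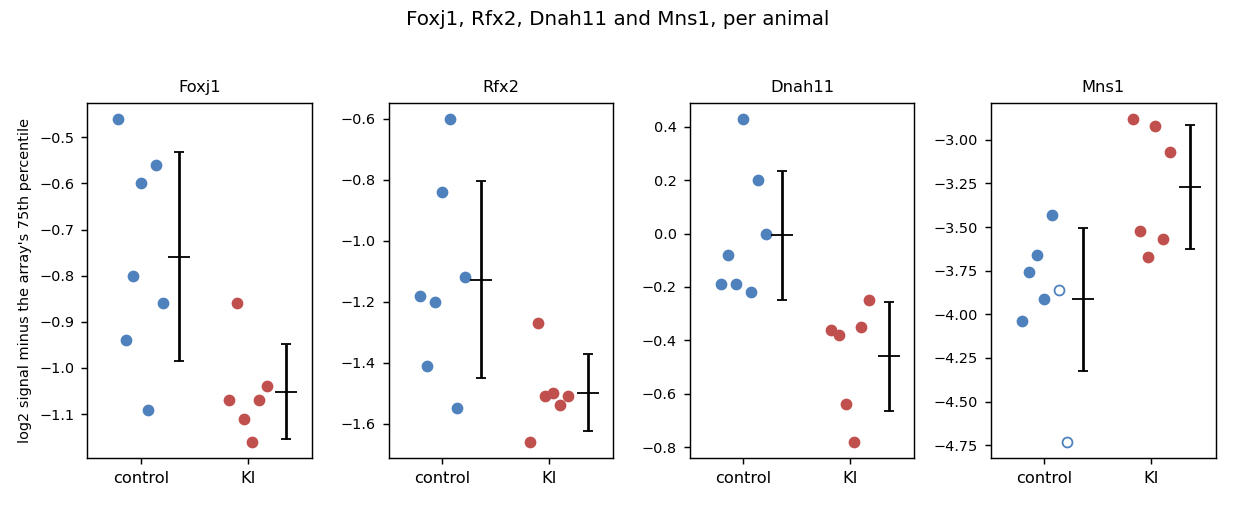
Level on each array (log2 signal minus the 75th percentile of the array) for Foxj1, Rfx2, Dnah11 and Mns1, the 4 members with an unadjusted limma p under 0.05, with controls in blue, KI-treated animals in red, open circles for spots not well above background, and the bars giving mean and SD. Each panel has its own vertical axis, and only in the Dnah11 panel do the groups not overlap.

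The tektins, filament proteins of the microtubule wall, varied more between animals than between groups. Tekt4 had levels of -0.70 to 1.14 in the KI-treated animals and of -0.40 to 0.84 in the controls, a difference of -0.12 (SE 0.27, limma adjusted p = 0.821, exact permutation p = 0.698). Tekt2 differed by -0.57 (SE 0.44, limma adjusted p = 0.521), with control animal 4 at 0.01 and the other controls at or below -2.52, and by -0.16 without that animal. Tekt1 differed by -0.16 (SE 0.48).

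The radial spoke proteins carry signals from the central pair to the dynein arms. Rsph9 had levels of 2.58 to 3.14 in the KI-treated animals (median 2.75) and of 2.37 to 2.92 in the controls (median 2.61), a difference of 0.18 (SE 0.13, limma adjusted p = 0.503, exact permutation p = 0.151). Rsph1 ran from -1.47 to -0.18 in the KI-treated animals and from -1.40 to 0.27 in the controls, and differed by -0.06 (SE 0.27, limma adjusted p = 0.902). Ropn1l, a spoke protein also found in the sperm tail, differed by -0.06 (SE 0.26). The groups of these genes overlapped.

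The nexin-dynein complex links neighbouring microtubule doublets. Ccdc39, a ruler protein, had levels of -2.64 to -2.07 in the KI-treated animals and of -2.75 to -1.80 in the controls, a difference of 0.10 (SE 0.15, limma adjusted p = 0.74, exact permutation p = 0.543). Ccdc65 had levels of -3.61 to -3.13 in the KI-treated animals and of -3.97 to -3.18 in the controls, a difference of 0.21 (SE 0.13, limma adjusted p = 0.469), with all 6 KI-treated animals above the control median. Drc1 differed by 0.02 (SE 0.24). Dynlrb2, a roadblock light chain of dynein, had levels of -3.96 to -2.82 in the KI-treated animals and of -6.12 to -2.22 in the controls and differed by 0.49 (SE 0.47, limma adjusted p = 0.595).

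Whether members moved with Spag6 from animal to animal was asked on values with the group means removed, for the 14 other members above background on all 13 arrays and for the second Spag6 probe, 15 relations in all. None passed after Benjamini-Hochberg adjustment. The highest r was that of Kif3b, 0.58 (permutation p = 0.0213, adjusted 0.16) with rho = 0.60 (permutation p = 0.0365, adjusted 0.274), and it was 0.28 without the 2 arrays farthest from the median of Spag6. Rsph9 had r = 0.56 (permutation p = 0.063, adjusted 0.315) and rho = 0.70 (permutation p = 0.0143, adjusted 0.214), and 0.68 without those arrays.

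The lowest r was that of Ccdc39, -0.79 (permutation p = 0.0102, adjusted 0.153) with rho = -0.45 (permutation p = 0.148, adjusted 0.74), and it was -0.41 without those arrays, and so rests in part on them. Control animal 1, the lowest control for Spag6, was the highest animal for Ccdc39. Kif3a had r = -0.08 (permutation p = 0.836, adjusted 0.993) with rho = -0.12 (permutation p = 0.702, adjusted 0.81). None of the factors passed either, all with adjusted p of 0.81 or more. For Foxj1, r was -0.32 (permutation p = 0.336) and rho -0.15 (permutation p = 0.64). For Rfx2, r was 0.23 (permutation p = 0.487) and rho 0.33 (permutation p = 0.284), and for Rfx3, r was 0.05 (permutation p = 0.877) and rho -0.05 (permutation p = 0.868). Without the 2 arrays farthest from the median of Spag6, r was 0.11 for Foxj1, 0.15 for Rfx2 and -0.52 for Rfx3.

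A feature that the choice of members did not use is the letters of their promoters. RefSeq (GRCr8) gave a promoter, from 250 bases before to 50 after the start, for 31 of the 37 members with a probe. An inverted repeat of GTNNCC, any 2 bases and GGNNAC, which holds both arms of an X-box and reads alike on both strands, was found for 6 of the 31 members (19.4%), against 1.96% of 27457 genes. A single arm, GTTGCC on either strand, was found for 16 members (51.6%), against 13.09% of genes. The letters TGTTTAC, a forkhead site on either strand, were found for 1 member, Spef2 (3.2%), against 4.13%. The patterns were picked after several had been looked at, the single arm can overlap the repeat, and a match is a run of letters, not a shown binding site. The repeats are given in capitals within 30 bases, as the members that hold them include Spag6, genes above background throughout and genes hardly seen.
Spag6 (Spag6l), chr11:97677768-97677797, plus strand: tgcggtcaGTTGCCCTGGAGACgtatacac
Rsph9, chr9:22337669-22337698, plus strand: ggctcaggGTCTCCATGGAGACggcttcta
Rfx2, chr9:1758116-1758145, minus strand: tagagactGTAGCCGTGGAGACtgttactt
Dnah12, chr16:1944682-1944711, plus strand: gtcatacaGTTTCCATGGTGACtatgttgt
Kif9, chr8:119338063-119338092, plus strand: ggcttcccGTTGCCATGGCGACtgtgtaca
Zmynd10, chr8:117098966-117098995, plus strand: gctccctcGTTTCCGTGGCGACgaggactc

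The promoter of Spag6l holds both arms, from 64 to 51 bases before the start. Among the holders, Spag6 differed by -1.20, Rfx2 by -0.37 (SE 0.15), Rsph9 by 0.18 (SE 0.13) and Dnah12 by 0.08 (SE 0.27). Kif9 and Zmynd10 were seen on too few arrays for a test. A relation between holding the repeat and the difference between the groups was not tested.

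Further genes of the pathway were described from lists. Of other motile cilium genes with a probe, 62, 32 were above background on all 13 arrays, 14 on none, and 36 were tested. At an unadjusted p under 0.05, Dnaaf2, a dynein assembly factor (-0.31, SE 0.14), and Lrrc48, of the nexin-dynein complex (-0.27, SE 0.12), were lower and Spag8 (0.78, SE 0.35) was higher. These are 5.56% lower and 2.78% higher, against 7.01% and 5.71% of all tested probes, and the median difference was -0.09. Cfap44, Cfap46, Cfap61, Ccdc114 and Sntn were among those never above background.

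The intraflagellar transport and BBSome genes, which build and supply primary and motile cilia alike, were nearly all seen, 31 of 34 on all 13 arrays and 0 on none. Of 33 tested, Ift57 (-1.02, SE 0.34) and Bbs2 (-0.26, SE 0.11) were lower and Ift43 (0.61, SE 0.26) and Dync2li1 (0.38, SE 0.17) higher at an unadjusted p under 0.05, which is 6.06% in each direction and near the 7.01% and 5.71% of all tested probes, with a median of -0.01. Ift57, a subunit of the transport complex B, had levels of -2.96 to -1.12 in the KI-treated animals and of -1.75 to -0.21 in the controls, which overlapped. Of 28 tested genes of the primary cilium and its transition zone, 2 were lower at that threshold, among them Sufu (-0.52, SE 0.22), which is 7.14% against 7.01% of all tested probes, and 0 were higher, with a median of -0.06. No gene of these lists had a limma adjusted p under 0.05, the lowest being 0.353.

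Markers of tissues that carry motile cilia or sperm tails were read beside these values. Of 14 airway secretory and basal markers with a probe, 5 were above background on all arrays and Ltf on none, and Muc5ac was above background on 2. Their level, summed on the linear scale, was 4.13 to 4.42 in the KI-treated animals and 4.14 to 4.52 in the controls. Most of that sum was Tp63, at 3.87 to 4.07 and 3.61 to 4.25 in these groups. The sum therefore says little about the secretory markers. Of the 9 airway markers that were tested, 1 was lower at an unadjusted p under 0.05 (11.1%, against 7.01% of all tested probes) and 0 were higher. The median difference was -0.03. Krt5 and Aqp5 differed by 0.72 (SE 0.45) and 0.49 (SE 0.28), and Bpifa1 and Sec14l3 by -0.56 (SE 0.55) and -0.55 (SE 0.31). The lower one, Scgb1a1, the club cell secretoglobin, ranged from -4.55 to -3.66 in the KI-treated animals and from -3.95 to -2.77 in the controls, with a log2 difference of -0.68 (SE 0.21, limma adjusted p = 0.353).

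Of 10 germ cell markers, 5 were above background on no array, Tnp1 among them, and 3 were tested. Of these, 2 were lower at an unadjusted p under 0.05, against 7.01% of all tested probes, the protamines that pack sperm DNA, Prm1 by -0.77 (SE 0.19, limma adjusted p = 0.342) and Prm2 by -0.47 (SE 0.19, limma adjusted p = 0.376). Prm1 was above background on only 9 arrays, at -4.19 to -3.71 in the KI-treated animals and -4.08 to -2.74 in the controls. Prm2 was above background on 13 arrays, at -2.69 to -1.76 and -2.27 to -1.23 in these groups. The summed level of the germ cell markers was 1.71 to 2.21 in the KI-treated animals and 1.88 to 2.56 in the controls. Most of that sum was Odf2, the remaining tested marker, at 1.52 to 1.96 and 1.66 to 2.39 in these groups. The sum therefore says little about the other germ cell markers. Skeletal muscle markers, read as well, summed to 2.40 to 6.52 in the KI-treated animals and to 4.70 to 7.60 in the controls. Of 9 muscle markers tested, 0 were lower and 0 higher at an unadjusted p under 0.05, with a median difference of -1.17. The part of these other cell types in the levels of Spag6, Foxj1, Rfx2 and Dnah11 was not tested.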

How the data were processed

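RNA from 13 rat thyroids was measured on single-colour arrays with 62976 features each. The authors deposited scanner files in which Agilent Feature Extraction (10.7.3.1) gives background-subtracted, detrended intensities without normalization between arrays, and flags for spots well above background. They also deposited log2 values in the rank order of the uncorrected median signals, by a normalization not given in the sources used here. These were an alternative. Here log2 intensity was averaged over the spots of a probe, giving 45598 probes. The 75th percentile of each array over these probes was then subtracted. Tests were run on the 25717 probes flagged as above background on 6 arrays or more, with limma 3.58.1 (R 4.3.3, lmFit and eBayes, no covariates) and Benjamini-Hochberg adjustment at 0.05. For single genes, group means were also compared by exact permutation (two-sided, 1716 splits), and correlations by 100000 two-sided permutations within groups. A gene was represented by its brightest probe. The fit was tested on simulated data. Between 34840 and 41050 of 58717 gene spots per array were well above background and 0 were saturated, and 0 columns of other samples were present. The number of arrays limits the precision.

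The members and lists were chosen with earlier results of these data known. Genes were named by rule: Spag6 and Kif3a with all probes, each tested member, the brightest of each role with values per group, members never above background by name only, and from each pathway list the genes with the smallest unadjusted p under 0.05. LOC102546862, the cell type markers and some undetected genes were named outside it. The alternatives were other normalizations and background corrections, the deposited values, other filters, slide, scan session and replicate number as blocks, other variance models, array weights, the methods' t-test, the mean over probes and leaving out each array. The 75th percentile taken over all gene spots was added after seeing the data. No genome was used here. The values of 1 gene of the primary cilium list are not reported here.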

Additional observations from a re-analysis of the deposited data

Results flagged for a closer look

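In 5 of 50 groups of arrays, made of each tested member's KI-treated or control arrays, 1 array stood apart from the rest of its group by more than a fixed share of the range. Chance flags about 1 in 20 such groups. Control animal 1 had a Spag6 level of -1.19 on probe A_64_P094910, the nearest control being at -0.38, and a Ccdc39 level of -1.80, the nearest being at -2.41. KI-treated animal 2 had a Spag6 level of -1.11 on probe A_43_P18519, the nearest KI-treated animal being at -2.43, and a Dnah10 level of 6.63, the nearest being at 6.82. Control animal 4 had a Tekt2 level of 0.01, the nearest control being at -2.52. All of these spots were well above background.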

How the results depend on the processing

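Spag6 on its brightest probe differed by -1.26 to -0.91 under the alternatives run, and by -1.34 to -1.07 with each array left out. The mean over both Spag6 probes gave -0.62. Kif3a lay between 0.21 (normexp with the 75th percentile) and 0.38, and between 0.28 and 0.32 with each array left out. Both genes were picked for their ranking on these same arrays, so a kept direction is no independent support. Over all probes, 0 were called in the main analysis and 50 with array weights, and 0 to 1 with each array left out. The 1 called without control animal 1 was the brightest Spag6 probe, which was ranked on these values and so is no independent support. The 1 called without control animal 2 was a probe of LOC103690985, which is no member. The 3 members lower at an unadjusted p under 0.05 became 5 with normexp and the 75th percentile, 1 with the percentile over gene spots, 2 with slide or scan session as a block, and 2 to 5 with each array left out, 5 without control animal 2. The 1 higher became 0 with that normexp setting and with the filter on all 13 arrays, 2 with gene spots or array weights, and 1 to 2 with each array left out, 2 without control animal 6. The median member difference was -0.19 to -0.05 under the other alternatives and -0.19 to -0.01 with each array left out, -0.01 without KI-treated animal 4. None of the other 21 tested members passed the adjusted threshold in any of them, and Dnah11 lay at -0.52 to -0.31. The causes of these shifts were not tested.

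The replicate numbers did not pair the arrays, as deviations of same-numbered arrays correlated between -0.11 and 0.07. With the replicate block, 2356 probes passed an unadjusted p under 0.05 against 3271, 0 passed the adjusted threshold, and 1 member was lower.

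Members near 0 changed sign. With normexp and the 75th percentile these were Dnah12 (-0.18), Dynlrb2 (-0.02), Ccdc39 (-0.05), Ccdc65 (-0.05) and Drc1 (-0.16), with gene spots Ropn1l (0.02) and Rsph1 (0.01), with slide as a block Ropn1l (0.00), with array weights Dnah1 (0.02), Dnah12 (-0.07), Drc1 (-0.25) and Rsph1 (0.16), and with the mean over probes Rfx3 (0.10). With each array left out, Dnah12 ran from -0.08 to 0.19, Drc1 from -0.16 to 0.14, Ropn1l from -0.19 to 0.06, Rsph1 from -0.19 to 0.09, Tekt1 from -0.40 to 0.24 and Tekt4 from -0.33 to 0.03.

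Of probes at an unadjusted p under 0.05, 44.9% were higher in the KI-treated group, but 56% after quantile normalization, 25.4% with normexp and the 75th percentile, 57.3% with normexp and quantile normalization, 58.1% in the deposited values, 61.7% with gene spots, 33.7% without a filter and 34.7% without control animal 6.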
